A study of Mus musculus with 18 samples.

Results

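Pentachloronitrobenzene (PCNB) is a chlorinated nitroaromatic fungicide, and its effect on lung transcripts was measured here in 3 mice against 3 mice given untreated feed. These 6 arrays were chosen by the labels of feed and compound, out of 18 arrays in the series. All animals were females of the hybrid strain B6C3F1, common in rodent bioassays, 5 weeks old when dosing began and 18 weeks old when the right lung lobe was taken, after 13 weeks. The PCNB mice (animals 16, 18 and 20) ate feed with 8187 ppm of the compound on 7 days a week, and the feed controls (animals 27, 28 and 29) ate rodent chow without it. Of the 4 remaining groups of 3 mice, 2 also received a compound in feed on 7 days a week, N-(1-naphthyl)ethylenediamine dihydrochloride (NEDD) or 1,5-naphthalenediamine (NDA), each at 2000 ppm. The last 2 were dosed by gavage on 5 days a week with corn oil or with 2,3-benzofuran at 240 mg/kg. The labels class PCNB and NEDD as negative and NDA and benzofuran as positive for lung tumours, and the study asked whether lung transcripts separate the classes. Each compound was given at 1 dose and sampled at 1 time.

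Nitroaromatic compounds are handled by reduction of the nitro group to an amine and by conjugation with glutathione, and both routes are known for PCNB. Many flat aromatic compounds also bind the aryl hydrocarbon receptor (AhR), a ligand-activated transcription factor that pairs with ARNT, binds short DNA elements with the core GCGTG and induces the monooxygenase Cyp1a1. Electrophiles free the transcription factor NRF2 from its repressor KEAP1, and NRF2 then induces enzymes of glutathione and quinone metabolism. Interferons act through transcription factors that bind elements in front of antiviral genes in which GAAA is followed, after any 2 bases, by a second GAAA.

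Signals are log2 values, and differences below are PCNB minus feed control on that scale, given with limma's standard error (n = 3 arrays per group). Of 18193 genes with a probe set of their own, 13434 were bright enough to test. A gene is said to rise or fall where limma's p, adjusted by Benjamini-Hochberg over all genes tested, was under 0.05. Of all genes tested 0.0149% rose (2 genes, Cyp1a1 and Ces1g) and 0 fell, while 399 had an unadjusted p under 0.05 (2.97%), 230 higher (1.71%) and 169 lower (1.26%). That unadjusted count ran from 203 without feed control 28 to 890 without PCNB 16, and was 2063 with array weights, where 672 of the genes tested would be counted by chance. The 3 PCNB arrays lay above the 3 feed control arrays in 3.67% of genes and below them in 4.87%, and 43.6% of all differences were above 0, with a median of -0.02. Signals of the lung's own cells were high and alike on the 6 arrays, from 14.57 to 14.63 for Sftpc, the surfactant protein of alveolar type 2 cells, and from 14.41 to 14.51 for Scgb1a1, the secretory protein of club cells. Correlations across genes were as high between groups (0.9877 to 0.9927) as within them (0.9878 to 0.9934), and no pair of arrays was identical. The labelled RNA integrity number was 8.3 to 8.9 in both groups. The 3′ minus 5′ signal of actin, which grows as RNA degrades, was 0.35 to 0.58 with PCNB and 0.58 to 0.73 in controls, and the labelled absorbance ratio was 1.85 to 2.87 and 1.80 to 2.22. In bulk tissue, fewer cells of a type and less RNA per cell cannot be told apart.

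The promoters of both genes that rose are shown first, and within the 250 bases searched they differ in the letters of the AhR core. Each stretch is the 250 bases before the RefSeq start on GRCm38.p6, read on the gene's strand from 5′ to 3′, chr9:57697363-57697612 on the plus strand for Cyp1a1 and chr8:93337210-93337459 on the minus strand for Ces1g, with any GCGTG on either strand in capitals.
Cyp1a1: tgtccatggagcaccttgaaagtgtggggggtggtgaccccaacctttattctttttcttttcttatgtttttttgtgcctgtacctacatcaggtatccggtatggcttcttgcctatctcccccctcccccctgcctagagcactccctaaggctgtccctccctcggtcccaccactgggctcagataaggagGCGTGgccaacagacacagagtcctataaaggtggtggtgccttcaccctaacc
Ces1g: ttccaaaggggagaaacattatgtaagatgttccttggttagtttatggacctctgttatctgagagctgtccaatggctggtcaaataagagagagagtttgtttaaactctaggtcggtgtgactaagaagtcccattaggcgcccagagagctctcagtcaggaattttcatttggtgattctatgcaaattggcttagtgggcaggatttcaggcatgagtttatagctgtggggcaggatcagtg
The Cyp1a1 stretch held the core once, 54 bases before the start, and the Ces1g stretch held none. GCGTG occurs in 28.2% of all 32851 promoters of this length, so that a match, or the lack of one, describes the letters only. Bases further upstream were not searched, and binding of AhR to either promoter was not measured.

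Cyp1a1, which oxidises polycyclic aromatic compounds and is the usual readout of AhR activity, had signals of 4.93, 5.51 and 7.12 in the feed controls. With PCNB they were 9.44 on array 18, 9.25 on array 16 and 9.95 on array 20. The groups did not overlap, and the controls spread more widely (SD 1.13) than the treated arrays (SD 0.36). The difference of 3.70 ± 0.44 (95% interval 2.77 to 4.62, adjusted p = 0.00118) came to 4.33 without feed control 29, the highest control. Signals in corn oil controls, at 5.81, 6.29 and 7.64, covered a similar range, all below PCNB. NEDD arrays lay from 8.83 to 9.25 and NDA arrays from 11.53 to 12.02.

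Ces1g, a carboxylesterase that hydrolyses esters of lipids and of drugs, had signals of 5.48, 5.13 and 5.37 in the feed controls, just above the level of about 5.0 under which genes were not tested. With PCNB the signals were 6.15, 6.42 and 6.44, above every feed control. The difference was 1.01 ± 0.12 (95% interval 0.75 to 1.27, adjusted p = 0.00118). Corn oil controls had Ces1g signals of 5.76, 5.74 and 5.59, above every feed control and below PCNB. NEDD arrays lay from 5.98 to 6.21, NDA arrays from 9.99 to 10.07 and benzofuran arrays from 8.76 to 9.17. Both genes had a single probe set. Both were also called with the actin difference or the absorbance ratio of each array as a covariate. With the spread taken from the 6 arrays of both groups alone, which leaves fewer degrees of freedom, neither passed (adjusted p = 0.12 for each at the same differences).

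**Figure D1:**
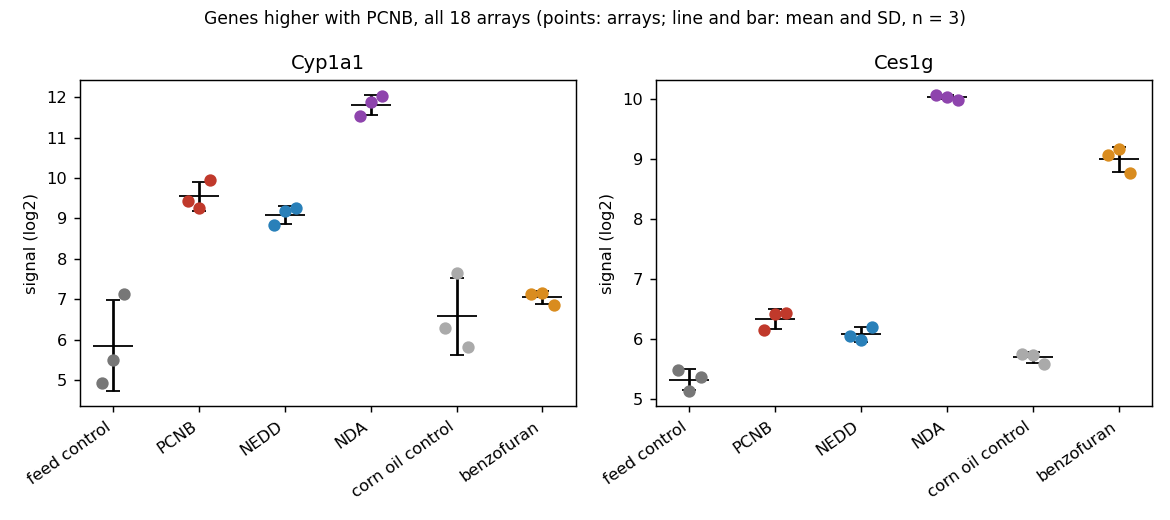
Log2 signal of Cyp1a1 and Ces1g on all 18 arrays by group, with points for arrays and a line and bar for the mean and SD (n = 3). PCNB lies above feed control for both genes, near NEDD and below NDA.

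The other tested AhR targets showed smaller differences. Of 13 listed, 7 were tested, 1 rose, 6 lay above 0 and the median was 0.28. Nqo1, a quinone reductase that is also an NRF2 target, had 6.33, 6.38 and 6.22 in the controls and 7.09, 6.82 and 6.68 with PCNB (0.56 ± 0.19, adjusted p = 1). Its groups did not overlap, and neither did those of Lpcat2, a lysophospholipid acyltransferase (0.28 ± 0.11). Overlapping values were found for Cyp1b1, a second AhR-induced monooxygenase (0.33 ± 0.21), the aldehyde dehydrogenase Aldh3a1 (0.17 ± 0.21), Tiparp, an ADP-ribosyltransferase that restrains the receptor (0.10 ± 0.13), and Fbxo32, a ubiquitin ligase (-0.26 ± 0.22). Tiparp came to -0.05 without feed control 27. Cyp1a2 and the AhR repressor Ahrr were too dim to test. In the list of the receptor and its partners, 5 of 10 genes were tested, with a median of -0.08 and none called.

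Ces1g was also the only one of 9 tested carboxylesterases that rose. Ces2b lay below every control on all PCNB arrays, at 5.39, 5.61 and 5.54 in the controls and 5.19, 5.27 and 4.87 with PCNB (-0.40 ± 0.13, adjusted p = 1). Ces1d, the abundant lung esterase, was level at 11.88 to 12.04 in controls and 11.87 to 12.07 with PCNB, and the values of Ces1f (0.29 ± 0.18), Ces5a (0.23 ± 0.14) and Ces1e (0.07 ± 0.17) overlapped. The median of the family was 0.07. The sign of Ces1d's difference (-0.02 ± 0.13) turned under several alternatives.

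NRF2 targets differed by small amounts in a common direction, and none was called. Of 26 tested, 25 lay above 0 against 43.6% of all genes, and the median was 0.15. The PCNB arrays lay above all feed controls for 8 and below for 0, against 3.67% and 4.87% of all genes. Srxn1, the sulfiredoxin that repairs peroxiredoxins, had 7.01, 7.30 and 7.24 in controls and 7.59, 7.58 and 7.74 with PCNB (0.45 ± 0.15). Txnrd1, thioredoxin reductase, had 9.40, 9.58 and 9.45 in controls and 9.84, 9.69 and 9.86 with PCNB (0.32 ± 0.10). The arrays of both genes did not overlap between groups, and the same held for Pgd of the pentose phosphate pathway (0.25 ± 0.09), Gstp1 (0.24 ± 0.09), Gsta3 (0.23 ± 0.10) and Gstm1 (0.21 ± 0.09), which join glutathione to electrophiles, and the carbonyl reductase Cbr3 (0.28 ± 0.17). Overlap was seen for Hmox1, which breaks down heme (0.29 ± 0.18), for Gclc (0.20 ± 0.17) and Gclm (0.23 ± 0.10), which start glutathione synthesis, and for Abcc4, the 1 target below 0 (-0.07 ± 0.17). The mean of the list, counted from the feed control mean, was 0.04, 0.04 and -0.08 on the control arrays and 0.23, 0.13 and 0.15 on PCNB arrays 18, 16 and 20. On the NEDD arrays it lay between -0.01 and 0.04 and on the NDA arrays between 1.08 and 1.19.

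Enzymes of the routes known for PCNB were mixed. Of 16 tested enzymes of nitro and carbonyl reduction and acetylation, none was called, and the median was 0.08. The PCNB arrays lay above all feed controls for 5 and below for 3, against 3.67% and 4.87% of all genes. Above were Nqo1, Cbr3, the aldo-keto reductase Akr1b8 (0.40 ± 0.14) and both aldehyde oxidases tested, Aox1 (0.22 ± 0.11) and Aox3 (0.27 ± 0.11). Below were the arylamine acetyltransferase Nat2 (-0.20 ± 0.15) and the aldo-keto reductases Akr1c13 (-0.18 ± 0.16) and Akr1c14 (-0.28 ± 0.13). Xdh, xanthine oxidoreductase, overlapped (0.06 ± 0.24). Of 21 glutathione S-transferases, 17 lay above 0 with a median of 0.06. The separated ones were the 3 NRF2 targets named above, all higher, against 3.67% of all genes. The 17 genes of glutathione supply had a median of 0.07, and the 11 of mercapturic acid and methylthio steps, which process glutathione conjugates further, 0.05, with none called.

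The list of Cyp2 and other monooxygenases held no separated gene among 19 tested, against 3.67% of all genes above the controls and 4.87% below. Cyp2b10, the usual target of the receptor CAR, had signals from 11.54 to 11.87 in controls and 11.53 to 11.72 with PCNB (-0.05 ± 0.15, 95% interval -0.37 to 0.27). Cyp2f2, the abundant club cell monooxygenase, had 0.07 ± 0.08 and Cyp4b1 0.05 ± 0.10. Cyp2e1 had the highest value of the list, 0.65 ± 0.36, with overlapping groups. Alas1, the first enzyme of heme synthesis, had -0.06 ± 0.14.

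**Figure D2:**
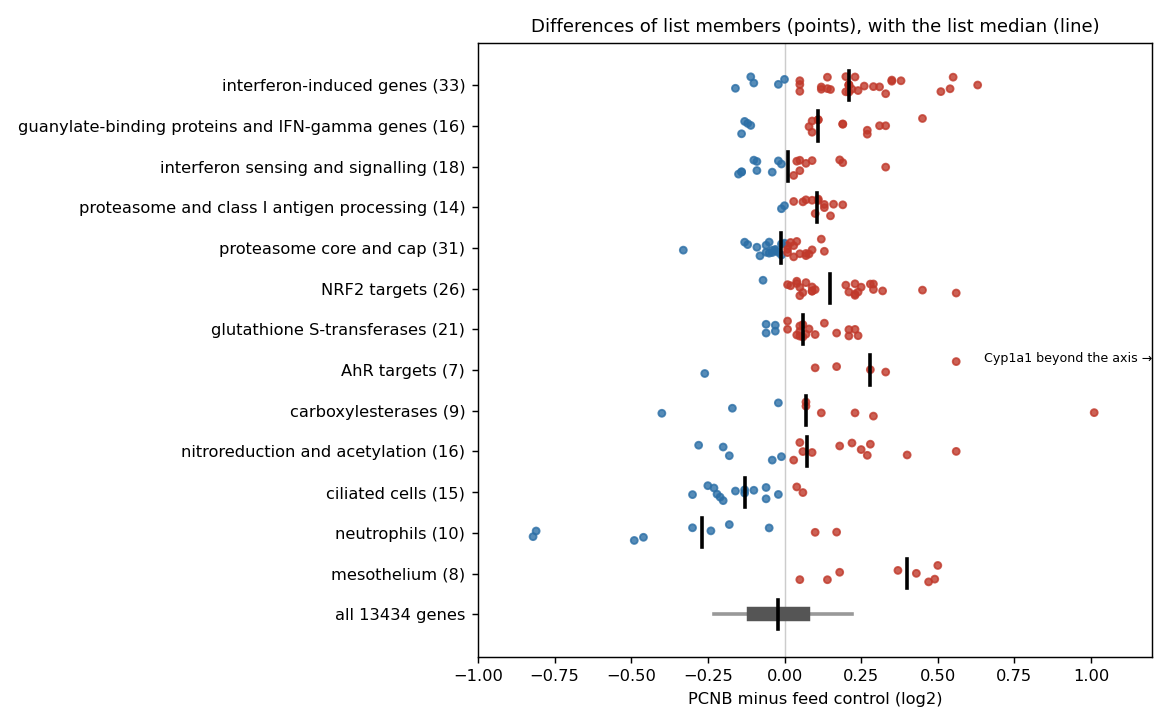
Difference of each tested list member, PCNB minus feed control on the log2 scale (red above 0, blue otherwise), with the list median as a line, the number of genes in brackets, and below them the median, quartiles and 5th to 95th percentile range of all 13434 genes. The interferon-induced, NRF2 and mesothelial lists lie mostly above 0, and the neutrophil and ciliated cell lists mostly below it.

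Antiviral genes induced by interferon stood next to AhR and NRF2 targets in size. Promoter stretches of 3 of them that hold the element within 160 bases of the start are shown as examples. Every match to GAAA, any 2 bases and GAAA on either strand is in capitals (a match on the opposite strand reads TTTC, 2 bases and TTTC, and the 2 matches of Oas1a overlap). Each is the last 160 bases before the RefSeq start on GRCm38.p6, from 5′ to 3′, chr5:120907526-120907685 on the minus strand for Oas1a, chr19:34640729-34640888 and chr19:34583369-34583528 on the plus strand for Ifit1 and Ifit3.
Oas1a: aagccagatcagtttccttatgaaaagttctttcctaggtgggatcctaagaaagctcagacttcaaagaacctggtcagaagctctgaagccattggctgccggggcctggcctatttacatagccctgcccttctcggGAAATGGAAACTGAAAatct
Ifit1: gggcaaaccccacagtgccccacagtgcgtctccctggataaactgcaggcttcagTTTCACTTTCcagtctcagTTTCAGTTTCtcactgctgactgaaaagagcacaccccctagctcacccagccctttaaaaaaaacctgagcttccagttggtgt
Ifit3: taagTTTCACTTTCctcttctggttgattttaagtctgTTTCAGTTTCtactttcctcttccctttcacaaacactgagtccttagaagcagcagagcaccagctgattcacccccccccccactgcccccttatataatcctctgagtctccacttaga
In the 250 bases before the start, 2.98% of all promoters held this motif. Of the 33 interferon-induced genes tested, 23 had an entry and 8 of these held it, Bst2, Ifit1, Ifit3, Oas1a, Oas3, Rsad2, Stat2 and Trim30a. The PCNB arrays lay above all feed controls for the 3 shown and overlapped them for Bst2, Oas3, Rsad2, Stat2 and Trim30a. Whether the element goes with the PCNB difference was not tested.

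Of the 33 tested interferon-induced genes of 38 listed, 28 lay above 0, the median was 0.21, and none was called. The PCNB arrays were above all feed controls for 10 and below for 1, against 3.67% and 4.87% of all genes. Oas2, an oligoadenylate synthetase activated by double-stranded RNA, had 6.62, 6.31 and 6.38 in controls and 7.08, 7.29 and 6.83 with PCNB. Its relatives Oasl2 (8.23, 8.06 and 8.10 against 8.71, 8.79 and 8.54) and Oas1a (7.93, 7.75 and 7.72 against 8.38, 8.41 and 8.14) had the same order among the treated arrays, with PCNB 16 the highest and PCNB 20 the lowest. Their differences were 0.63 ± 0.13 (adjusted p = 0.582), 0.55 ± 0.13 and 0.51 ± 0.14 (adjusted p = 1 for both). Mx2, an antiviral GTPase, was almost constant in controls (5.50, 5.52 and 5.51) and higher with PCNB (5.76, 5.84 and 5.98), a difference of 0.35 ± 0.10. The others without overlap were Ifit1 (0.29 ± 0.15) and Ifit3 (0.31 ± 0.15), which bind viral RNA, the protease Usp18 (0.26 ± 0.14), the RNA sensor Ddx58 (0.24 ± 0.10), the ubiquitin ligase Herc6 (0.35 ± 0.13) and the kinase Eif2ak2 (0.21 ± 0.19). Mx1 was the member below the controls (-0.16 ± 0.12), near the lower limit of testing at 4.73 to 5.01. Irf7, the factor that amplifies the response (0.33 ± 0.13), overlapped, and so did Oas3 (0.14 ± 0.10), Oasl1 (0.14 ± 0.18), Stat2 (0.05 ± 0.18) and Irf9 (0.05 ± 0.13).

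Genes of interferon sensing and signalling, which act upstream of these, had a median of 0.01 over 18 tested genes, with 9 above 0. Of 16 tested guanylate-binding proteins and other genes induced by interferon gamma, 12 lay above 0, with a median of 0.11 and none called. The PCNB arrays lay above all feed controls for 6 and below for 0, against 3.67% and 4.87% of all genes. Gbp6, a guanylate-binding GTPase, had 8.69, 8.63 and 8.65 in controls and 9.16, 9.14 and 9.02 with PCNB (0.45 ± 0.22). The immunity-related GTPase Irgm2 had 8.56, 8.58 and 8.66 in controls and 8.91, 8.90 and 8.96 with PCNB (0.33 ± 0.14). Both were tight within each group on these 6 arrays, and the corn oil controls were near the PCNB level, with means of 9.08 for Gbp6 and 8.93 for Irgm2 against 9.10 and 8.93 with PCNB. Gbp7 (0.27 ± 0.20), Igtp (0.27 ± 0.17), Irgm1 (0.11 ± 0.12) and Gbp2 (0.09 ± 0.12) were also separated from feed control. Corn oil means were again near or above PCNB, 10.02 against 10.06 for Gbp7, 9.15 against 9.09 for Igtp and 9.56 against 9.39 for Gbp2. Irgm1 had 8.49 to 8.53 in corn oil controls and 8.32 to 8.36 with PCNB. The list mean was 0.17, 0.19 and 0.19 on corn oil controls, above the 0.12, 0.16 and 0.09 of PCNB arrays 18, 16 and 20. Gbp3 (0.19 ± 0.13) and the checkpoint ligand Cd274 (0.31 ± 0.13) overlapped with feed control. The chemokines Cxcl9 (-0.12 ± 0.35) and Cxcl10 (0.11 ± 0.16) were near the limit of testing. In class I antigen presentation 12 of 14 genes lay above 0, with a median of 0.10 and the highest value 0.19. Separated were 3, all higher, against 3.67% of all genes, and none was called. These were Tap1 (0.13 ± 0.10), H2-K1 (0.15 ± 0.08) and H2-D1 (0.16 ± 0.10). The constitutive proteasome had a median of -0.01 over 31 genes.

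Set against all 15 other arrays of the series, the 3 PCNB arrays were the highest for 13 of 13434 genes (0.0968%) and the lowest for 6 (0.0447%). Among the 13 were 5 of the 33 interferon-induced genes, Oas2, Oasl2, Oas1a, Mx2 and Ifit1. The lowest PCNB array exceeded the highest other array by 0.19 for Oas2, 0.15 for Oas1a, 0.13 for Oasl2, 0.08 for Mx2 and 0.01 for Ifit1. Of the rest, Ifitm3, a membrane protein that blocks viral entry, and Rnf213, a ubiquitin ligase, are also known to respond to interferon, were not on the list and were chosen after their values were seen, with margins of 0.01 and 0.03. Aox3, Abcg4, Atp8a2, Plekha1, Vgll1 and the clone-named 4931408D14Rik completed the 13. The 6 lowest were Mdk, Fmod, Prr36, Fkbp11, Cep89 and Cenpv.

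**Figure D3:**
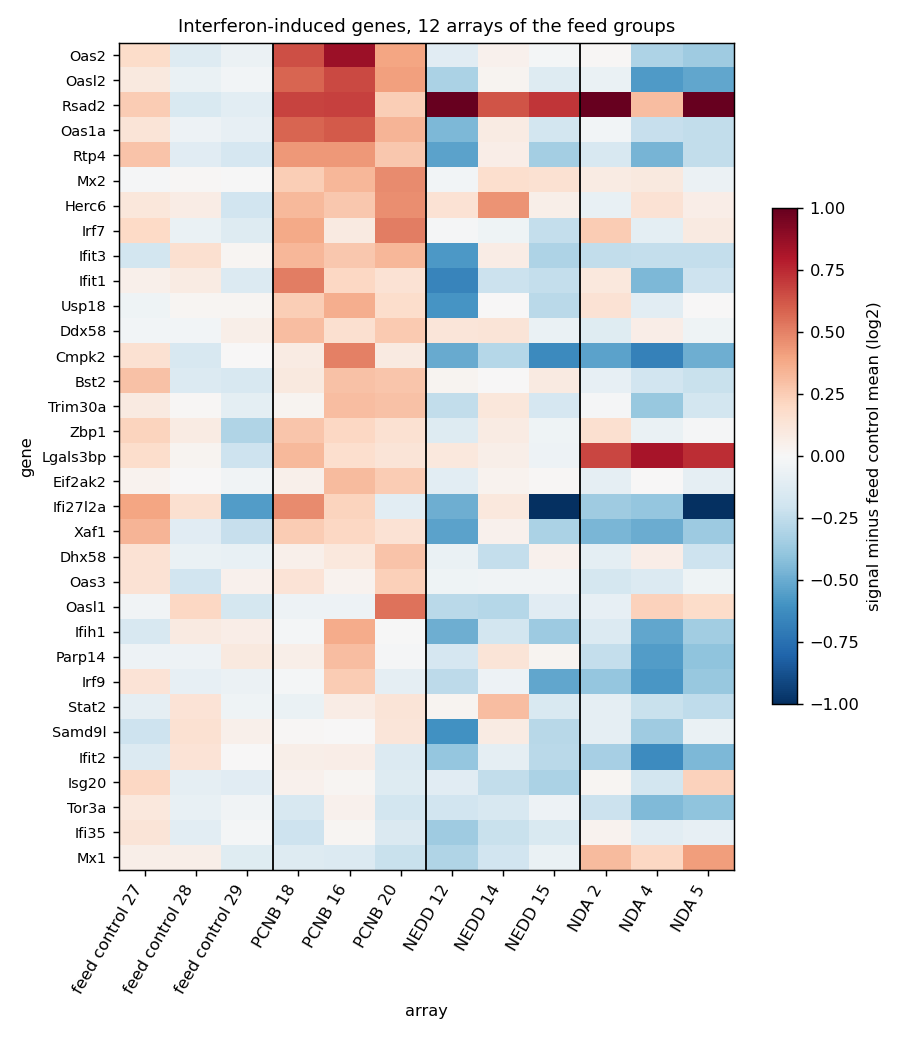
Signal minus the feed control mean, log2, for the 33 tested interferon-induced genes (rows, ordered by the PCNB difference) on the 12 arrays of the feed groups (columns), from blue at -1 to red at 1. The PCNB columns are red for most genes, while most NEDD and NDA columns are near white or blue, with exceptions such as Rsad2 and, with NDA, Lgals3bp and Mx1.

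The list mean of the interferon-induced genes was 0.20, 0.25 and 0.17 on PCNB arrays 18, 16 and 20, and 0.09, -0.01 and -0.08 on the feed controls. All other arrays lay at or below 0.13, the value of corn oil control 22. PCNB arrays lay above all NEDD arrays for 20 of the 33 genes (5.75% of all genes) and below for 0 (4.32% of all genes), with none called. They lay above all NDA arrays for 24 (8.88% of all genes) and below for 2 (10.3% of all genes). These comparisons share the PCNB arrays. Against NDA 6 of the genes were called higher with PCNB, Oas2 (0.85), Oasl2 (0.94), Oas1a (0.68), Rtp4 (0.67), Cmpk2 (0.79) and Parp14 (0.52), against 0.253% of all genes. The secreted glycoprotein Lgals3bp was called lower (-0.54). Cmpk2 and Parp14 overlapped with feed control, at 0.23 ± 0.16 and 0.12 ± 0.12. Of the 16 genes of the interferon gamma list, 4 were called higher with PCNB than with NDA, Gbp6 (1.09), Irgm2 (0.85), Gbp3 (0.84) and Gbp7 (0.83). None of these was called against feed control, and NDA itself lay below feed control for each. The NDA and feed control means were 8.02 and 8.65 for Gbp6, 8.08 and 8.60 for Irgm2, 7.87 and 8.51 for Gbp3, and 9.23 and 9.79 for Gbp7. On the NDA arrays the interferon-induced list mean was -0.03, -0.19 and -0.11.

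**Figure D4:**
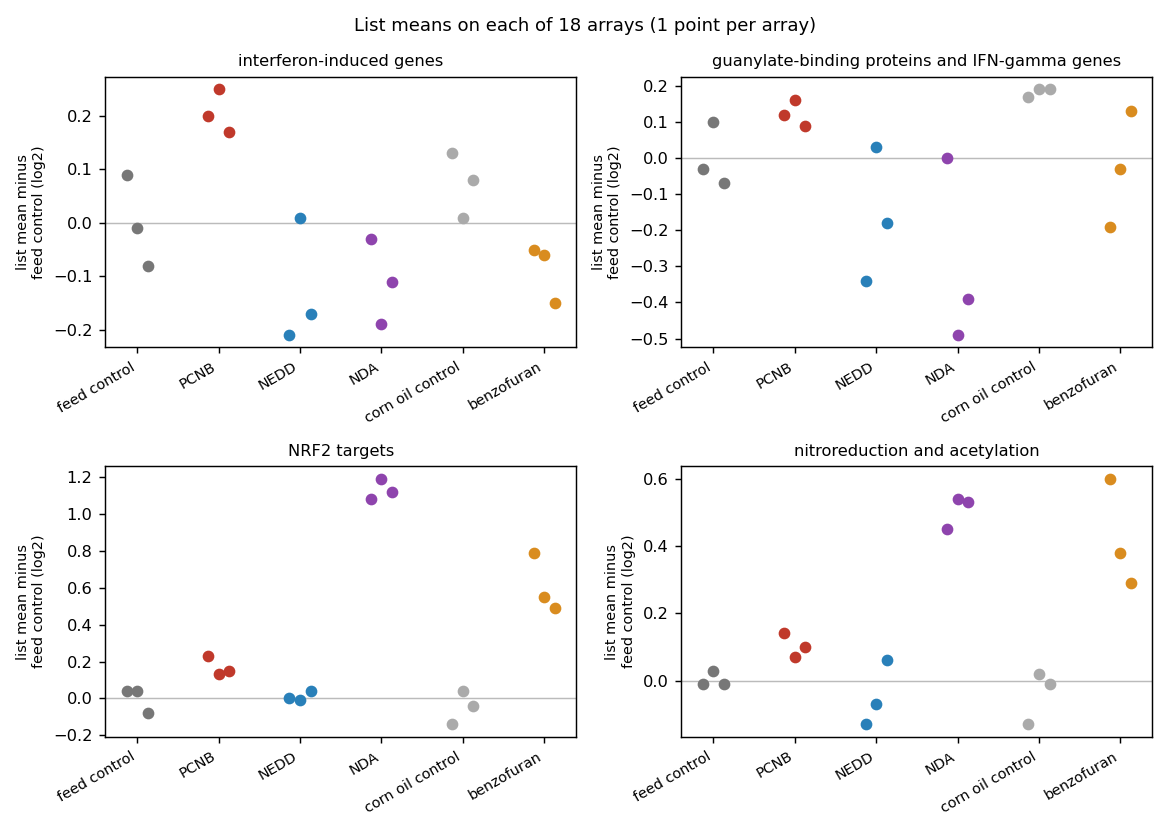
Mean of 4 gene lists on each of the 18 arrays, counted from the feed control mean (log2), 1 point per array. The PCNB arrays are highest for the interferon-induced genes. For the interferon gamma list they overlap feed control and lie below the corn oil controls. For NRF2 targets and reductases they lie just above feed control but below NDA and benzofuran.

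The rule for single genes (no overlap with controls and an unadjusted p under 0.01) was met by 58 of 13434 genes, 39 higher and 19 lower. It picks genes for description only. At an unadjusted p under 0.05 the main fit counted fewer genes (399) than chance would give (672). After Cyp1a1, Ces1g, Oas2, Nqo1, Oasl2, Oas1a and Srxn1, the largest positive differences were those of Ube2ql1 (0.53), Nsl1 (0.48), Atp8a2 (0.48), Tnfrsf11a (0.46) and Wfdc12 (0.45), all at dim signals between 4.93 and 5.95 on the PCNB arrays. For Ube2ql1, Tnfrsf11a, Nsl1 and Wfdc12 the feed controls were the low group of the series, with means of 4.80, 4.61, 5.20 and 5.39. Ube2ql1 had 5.33 with PCNB and 5.15 to 5.30 in the 4 other groups, and Tnfrsf11a 5.06 and 4.96 to 5.12. Nsl1 had 5.68 with PCNB and 5.43 to 5.67 in the 4 other groups, and Wfdc12 5.85 and 5.50 to 5.81. Atp8a2 had 5.19 in feed control, 5.67 with PCNB and 5.20 to 5.43 in the other groups. Nsl1 is a kinetochore subunit, Atp8a2 a lipid flippase and Tnfrsf11a the receptor RANK.

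The largest negative value was that of Cyp26b1, which clears retinoic acid. Its signals were 8.00, 7.83 and 8.54 in the feed controls and 6.21, 7.05 and 7.08 with PCNB (-1.34 ± 0.45, adjusted p = 1). The groups did not overlap, but a corn oil control (6.73), a NEDD array (6.70) and a benzofuran array (6.68) lay within the range of the PCNB arrays. Feed control had the highest mean of the series (8.12), with 6.78 for PCNB and 7.19 to 8.01 in the other groups. The calcineurin subunit Ppp3cc had 5.63, 5.68 and 5.75 in controls and 4.87, 5.04 and 5.09 with PCNB (-0.69 ± 0.20). It was called in a fit of the 12 feed arrays alone, and its second probe set gave 0.17 ± 0.15. Ccr1, a chemokine receptor of myeloid cells, had 7.19, 7.74 and 7.20 in controls and 6.70, 6.73 and 6.66 with PCNB (-0.68 ± 0.22). For Ccr1 too the feed control mean was the highest of the series (7.38), with 6.69 for PCNB and 6.85 to 7.20 in the other groups. Next came fibrinogen gamma, Fgg (-0.63), the matrix proteoglycan Fmod (-0.60), Bex1 (-0.60), the membrane mucin Muc4 (-0.57), Atat1, which acetylates tubulin (-0.53), the cell cycle ubiquitin ligase subunit Skp2 (-0.45), Plekhd1 (-0.45), the growth factor Mdk (-0.44) and the translesion DNA polymerase Rev1 (-0.42). None passed adjustment. Other probe sets of Fmod lay between -0.05 and 0.19 and those of Atat1 between -0.11 and 0.23, and 1 of Skp2 gave 0.45 ± 0.15.

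None of the 24 lists of cell type markers had a list mean separated between the groups, and no marker was called. Of the 37 pathway lists, 6 had a separated mean, all above feed control, and some of these share genes such as Nqo1. Neutrophil genes had the lowest median, -0.27, with 8 of 10 tested below 0. S100a8, a subunit of calprotectin, had 11.81, 11.93 and 12.10 in controls and 10.61, 10.85 and 11.94 with PCNB (-0.81 ± 0.25). S100a9, the other subunit, had 11.51, 11.74 and 11.77 in controls and 10.36, 10.57 and 11.64 with PCNB (-0.82 ± 0.26). PCNB array 20 was at the level of the controls for both genes, while arrays 18 and 16 were below them. Csf3r (-0.46 ± 0.23), Mmp8 (-0.49 ± 0.23) and Cxcr2 (-0.30 ± 0.11), a growth factor receptor, a collagenase and a chemokine receptor of the same cells, overlapped too. The Csf3r difference ran from -0.67 without feed control 27 to -0.30 without feed control 29 or PCNB 18, and that of Mmp8 from -0.83 without feed control 27 to -0.26 without feed control 29. Other listed genes were mixed. Mmp9 was below the controls on PCNB 18 and 16 (7.19 and 6.90, against 7.24, 7.23 and 7.41) and within their range on PCNB 20 (7.24). Ltf and Camp did not follow S100a8. Ltf, a granule protein, was highest on PCNB 18 (9.74, against 7.51, 8.94 and 7.14 in controls), and Camp, a granule peptide, had 5.40 and 5.33 on PCNB 18 and 16 against 5.47, 5.30 and 5.19. Without PCNB 20, S100a8 was called at -1.21. The neutrophil list mean was -0.27, -0.56 and -0.09 on PCNB arrays 18, 16 and 20 and -0.17, 0.23 and -0.06 on the controls. Among the PCNB arrays its order was the reverse of that of the interferon list mean, which was highest on array 16 and lowest on array 20. Ly6g, Retnlg, Elane and Mpo were not tested.

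Mesothelial markers, genes of the pleural lining, had the highest median, 0.40 over 8 genes, all above 0, and turned to -0.05 without feed control 27. Msln had 6.68, 8.05 and 8.30 in controls and 8.60, 7.32 and 8.50 with PCNB, and Upk3b 7.75, 9.35 and 9.49 against 9.75, 8.36 and 9.95. Feed control 27 and PCNB 16 were thus the low arrays of their groups. Genes of the circadian clock also differed among animals of 1 group. The clock output factor Dbp had 7.10, 7.87 and 8.49 in controls and 6.28, 5.80 and 8.80 with PCNB, while Arntl, which is expressed in the opposite phase, had 8.14, 8.09 and 8.06 against 8.27, 8.68 and 7.45. Array 20 thus had the highest Dbp and the lowest Arntl, and array 16 the reverse. The parts of neutrophil content, pleural tissue and clock phase in the differences above were not tested.

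**Figure D5:**
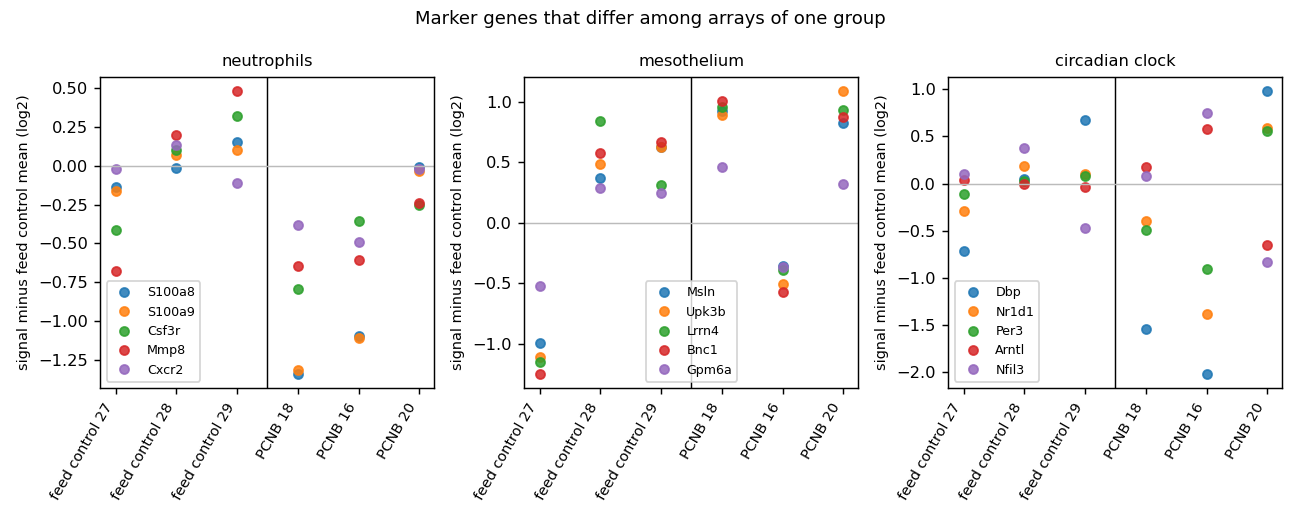
Signal minus the feed control mean (log2) of 5 marker genes each for neutrophils, mesothelium and the circadian clock on the 6 arrays, picked after their values were seen. The 5 neutrophil genes shown lie below the feed control mean on PCNB 18 and 16, but all 5 also do so on feed control 27, Mmp8 and Csf3r by the most. Mesothelial genes are low on feed control 27 and PCNB 16, and clock genes differ most between PCNB 16 and 20.

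Other cell types differed less. Ciliated cell genes had a median of -0.13, with 2 of 15 above 0, alveolar type 1 and type 2 cell genes medians of 0.00, endothelial genes -0.04 and alveolar macrophage genes 0.01. Cardiac muscle genes had a median of 0.21, with values on single arrays from -0.42 to 0.31 in controls and -0.09 to 0.55 with PCNB. Cell cycle genes had a median of 0.09 and p53 targets -0.04, and no DNA repair gene was called among 27 tested.

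The direct comparison of treated groups tested where PCNB and the other feed compounds differ, at doses that were not the same. Against NEDD, Cyp1a1 differed by 0.46 ± 0.44 (95% interval -0.46 to 1.38) and Ces1g by 0.25 ± 0.12 (0.00 to 0.51), both with adjusted p = 0.999. Neither difference was detectable with 3 arrays per group. The 1 gene called (0.00744% of those tested) was Marco, a scavenger receptor of alveolar macrophages, at 7.48, 8.04 and 7.52 with PCNB and a mean of 6.41 ± 0.27 (SD, n = 3) with NEDD. That difference was 1.27 ± 0.16 (adjusted p = 0.00436), and PCNB itself lay 0.22 ± 0.16 from feed control. Against NDA 0.253% of genes were higher with PCNB and 1.12% lower. Cyp1a1 was lower by -2.26 ± 0.44 (adjusted p = 0.00909), Ces1g by -3.70 ± 0.12 (adjusted p = 1.72e-12), and 20 of the 26 NRF2 targets were called lower.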

How the data were processed

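Total RNA (10 µg per array) from the right lung lobe of 18 mice was hybridised to Affymetrix whole-genome mouse arrays, 1 animal per array, per the labels. The authors deposited 1 log2 value per probe set and array, from 2.48 to 14.78. Base 2 was judged from that range, and folds rest on it. Of base, summary method and normalization the record used here says nothing. Array medians lay between 5.678 and 5.803, so values were used as deposited. Of 45101 probe sets, 34945 had a single gene symbol in the platform annotation, 932 several, 9160 none, and 64 were controls. Each gene was represented by its probe set with the highest mean, and was tested if 3 or more arrays had it above the 40th percentile of their own signals.

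The 18 arrays entered 1 limma model (version 3.58.1, R 4.3.3, with lmFit, contrasts.fit and eBayes) with a mean for each of 6 groups and 12 residual degrees of freedom, two-sided, with Benjamini-Hochberg adjustment over 13434 genes in each comparison. Permuting 3 arrays against 3 cannot give a p below 0.1, so the tests rest on the pooled spread. Precision is limited by 3 arrays per group, with a median standard error of 0.13. On simulated log2 data for PCNB against feed control (13434 genes, 200 changed, 5 runs), 59.2% of genes changed 1.5-fold and 93.6% of those changed 2-fold were recovered. There, 4.7% of calls were false. The 200 changed genes included changes of 4-fold and 8-fold. In the measured comparison 2 genes were called, and Oas2, at 1.55-fold, had a limma adjusted p of 0.582. Recovery with fewer than 200 changed genes was not tested.

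The comparison and the gene lists (37 of pathways and 24 of cell types) were chosen with earlier results of these data known. Named are the genes called, the 12 largest differences in each direction among genes without overlap and with an unadjusted p under 0.01 (clone names skipped), the first 4 tested members of a described list and its 4 of smallest p, and the 6 largest called differences in each direction against NEDD and NDA; other members were added after their values were seen. Promoters are RefSeq's on GRCm38.p6.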

Additional observations from a re-analysis of the deposited data

Results flagged for a closer look

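The results below stand out because the direct test between treated groups found different responses to 2 compounds given in feed at different doses; values are log2 differences with limma's standard error and Benjamini-Hochberg adjusted p (n = 3 arrays per group).

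Marco was higher with PCNB than with NEDD by 1.27 ± 0.16 (adjusted p = 0.00436). The call was lost without NEDD 15 and in fits of both groups alone or of the 12 feed arrays. Means were 7.68 with PCNB, 6.41 with NEDD and 7.46 in feed control. Other alveolar macrophage genes differed by 0.32 (Chil3), 0.30 (Siglecf) and 0.03 (Ctsk) in the same comparison, none called.

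Higher with PCNB than with NDA were Chad, a cartilage matrix protein (1.45 ± 0.21, adjusted p = 0.000432), Gzma, a protease of killer lymphocytes (1.23 ± 0.24, adjusted p = 0.0102), the hepatic lectin subunit Asgr1 (1.18 ± 0.25, adjusted p = 0.0207), the serotonin receptor Htr2b (1.15 ± 0.17, adjusted p = 0.00076), Lrrc26 (1.10 ± 0.18, adjusted p = 0.00162) and the bicarbonate transporter Slc4a5 (1.10 ± 0.12, adjusted p = 3.16e-05). The PCNB and feed control means were close for most of them, 8.43 and 8.58 for Chad and 7.83 and 7.97 for Slc4a5.

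Lower with PCNB than with NDA were Cd177 of the neutrophil surface (-3.71 ± 0.23, adjusted p = 1.69e-08), Ces1g (-3.70 ± 0.12, adjusted p = 1.72e-12) and the immunoglobulin genes Igkv6-14 (-3.41 ± 0.38, adjusted p = 3.16e-05) and Igkv9-120 (-3.26 ± 0.64, adjusted p = 0.0105). Gp2, a glycoprotein of M cells and pancreas, and the tryptophan dioxygenase Tdo2 differed by -4.18 and -3.58, which is a description and no test. Their means with PCNB (4.10 and 3.59) and in feed control (4.00 and 3.45) lay under the level of about 5.0 used to decide which genes to test, and they passed it through the NDA arrays (8.28 and 7.17). Cyp1a1, called against feed control as well, was lower than with NDA by -2.26 ± 0.44 (adjusted p = 0.00909).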

How the results depend on the processing

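Of 2 genes called against feed control (2 to 3 without any 1 array, with S100a8 added without PCNB 20), 0 passed in a fit of those 6 arrays alone, where 578 had an unadjusted p under 0.05. Against NEDD the 1 call became 0 with both groups alone (772 unadjusted), 0 with the 12 feed arrays (920 unadjusted), 18 with array weights (12 higher, 6 lower) and 0 to 2 without 1 array (0 without NEDD 15, 2 without NEDD 14). Against NDA the 184 calls became 353 with the 12 feed arrays, 817 with array weights (298 higher, 519 lower), 369 with the actin covariate, 344 with benzofuran 10 left out, and 116 to 150 without 1 array. The causes were not tested.

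Signs turned for Skp2 (0.01 with the mean of its probe sets), Tiparp (-0.05 to 0.17 without 1 array, lowest without feed control 27), Ces1e (-0.02 to 0.11 without 1 array, lowest without feed control 29) and Ces1d (0.05 with the mean of probe sets, 0.02 with the actin covariate, 0.05 with the absorbance ratio, and -0.09 to 0.01 without 1 array). Cyp1a1 stayed between 3.23 and 4.33 and Ces1g between 0.91 and 1.10. The interferon list median stayed between 0.16 and 0.25 and that of NRF2 targets between 0.09 and 0.21. Scaling moved the median of all genes by less than 0.1, to -0.041 with median centring and 0.006 with quantile normalization. Leaving out benzofuran 10, which stood apart from all other arrays, and the absorbance ratio were chosen after seeing the data, as were the 12 feed arrays, the trend and robust fit and the 60th percentile filter for single genes. No paired analysis was possible because animal numbers do not recur between groups.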
